A study of Mus musculus with 6 samples.

Results

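The genes described here are 7 transcripts used as marks of venous endothelium, out of 49315 genes counted: Nr2f2, Nr2f1, Lrg1, Bgn, Il1r1, Flrt2 and Tmem252. They were taken by name from the deposited table of gene values, all 7 were found there once, and all 7 passed the filter on low counts that left 23989 genes for testing. RNA came from CD45-depleted, CD31-selected cells of 4T1 mammary tumours. These tumours are grown from a mouse mammary carcinoma line, 4T1, placed in the inguinal fat pad of Balb/c females. The mice were 8 weeks old at implantation and 10 weeks old at harvest, and the tumours had 2 weeks to grow. Every mouse had received 1E12 gold nanoparticles of 50 nm, coated with mPEG (5K) and carrying Cy5, by tail vein 1 hour earlier, so that both groups come from treated animals. Flow cytometry divided the cells of each of 3 tumours (MET-106, MET-107, MET-108) into a nanoparticle-positive fraction (NP+, 3 libraries) and a nanoparticle-negative fraction (NP-, 3 libraries). No source used here says whether a tumour equals 1 mouse or gives the number of cells sorted. The comparison asks whether venous transcripts differ between endothelial cells with and without nanoparticles.

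Veins and arteries differ in the transcription factors of their endothelium. Nr2f2 encodes COUP-TFII, an orphan nuclear receptor that holds venous identity by restraining Notch signalling, the pathway that drives arterial fate, and that also acts early in lymphatic specification. Nr2f1 encodes its close relative COUP-TFI. Lrg1 encodes a secreted leucine-rich glycoprotein that modulates TGF-beta signalling through endoglin, Bgn the small leucine-rich matrix proteoglycan biglycan, and Il1r1 the signalling receptor for interleukin-1. Flrt2 encodes a membrane protein that binds Unc5 receptors and latrophilins, and Tmem252 a transmembrane protein.

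By edgeR's quasi-likelihood test, adjusted over all genes, none of the 7 genes was called different between NP+ and NP- cells. DESeq2 and the authors' deposited table each called 1, Nr2f1, in tests that call 15.5% and 13.2% of the genes given an adjusted p. The COUP-TFII gene Nr2f2 had a fitted fold (NP+ over NP-) of 0.789, with a 95% interval of 0.530 to 1.18, and the groups overlapped. Nr2f1 was lower in NP+ in all 3 tumours, as are 30.4% of all tested genes. In 5 of 6 libraries it was no more than 1.23 times the mean level of olfactory receptor genes, which were taken as a measure of silent genes. The median olfactory gene was lower than this mean in every library, so the ratio depends on the use of the mean. Lrg1 and Tmem252 were abundant in every library. Bgn was high in 1 NP- library that also held the most fibroblast, mural and epithelial marker RNA.

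The start-site sequences of 4 of the genes are shown because these genes span the range of levels, from Lrg1 and Tmem252 at the top, through Nr2f2, to Nr2f1 at the bottom. Each is 250 bases before and 50 after the start of the gene in RefSeq (build GRCm38.p6, the build of the counts), with every CG dinucleotide in capitals. All 7 genes had an entry in this promoter table.
Nr2f2 (chr7:70366697-70366996, minus strand): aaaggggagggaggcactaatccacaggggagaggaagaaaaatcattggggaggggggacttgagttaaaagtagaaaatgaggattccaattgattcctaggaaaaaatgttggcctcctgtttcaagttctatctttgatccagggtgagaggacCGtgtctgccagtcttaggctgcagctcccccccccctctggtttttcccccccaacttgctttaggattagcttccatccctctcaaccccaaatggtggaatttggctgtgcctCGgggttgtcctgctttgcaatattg
Nr2f1 (chr13:78198824-78199123, minus strand): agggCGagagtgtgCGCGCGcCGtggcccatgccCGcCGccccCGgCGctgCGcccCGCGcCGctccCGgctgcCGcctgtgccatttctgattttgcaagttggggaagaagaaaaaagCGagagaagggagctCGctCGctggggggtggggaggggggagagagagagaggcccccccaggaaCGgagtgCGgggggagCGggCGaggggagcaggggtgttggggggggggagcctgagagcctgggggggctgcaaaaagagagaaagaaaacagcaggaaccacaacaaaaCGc
Lrg1 (chr17:56121897-56122196, minus strand): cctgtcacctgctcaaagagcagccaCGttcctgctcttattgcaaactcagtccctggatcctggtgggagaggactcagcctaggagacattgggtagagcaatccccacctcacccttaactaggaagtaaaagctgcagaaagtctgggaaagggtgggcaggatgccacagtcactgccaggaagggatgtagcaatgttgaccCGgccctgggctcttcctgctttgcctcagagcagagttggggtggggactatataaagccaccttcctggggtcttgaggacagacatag
Tmem252 (chr19:24673758-24674057, plus strand): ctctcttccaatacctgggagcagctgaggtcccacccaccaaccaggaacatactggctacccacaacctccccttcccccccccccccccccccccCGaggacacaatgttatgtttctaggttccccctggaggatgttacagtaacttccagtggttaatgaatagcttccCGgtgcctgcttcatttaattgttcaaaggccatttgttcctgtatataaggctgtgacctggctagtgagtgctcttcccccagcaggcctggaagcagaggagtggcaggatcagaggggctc
The Nr2f2, Lrg1 and Tmem252 windows each hold 2 CG dinucleotides, and the Nr2f1 window holds 23, where the median over 32851 promoters in the table is 7. A window with 2 or more is found in 85.9% of these promoters and one with 23 or more in 21.5%. A second RefSeq start of Nr2f1 has 4, the Bgn window has 9, the Flrt2 window 14, and both Il1r1 windows 5 and 14. The TATA box letters TATAAA, searched on both strands, occur in the Lrg1 window alone among the 7 genes, 12 bases after the annotated start, and in 13.6% of all promoters. The nuclear receptor motif AGGTCA, searched likewise, is in the Tmem252 window alone among the 7, 20 bases before the start, and in 16.3% of all promoters.

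Nr2f1 and Nr2f2 are paralogs, so the share of sequence that could be counted for either was measured. The longest run their coding transcripts share is 59 bases, in the coding sequence of both, where the first zinc finger of the DNA-binding domain is encoded; it is shown because reads that lie inside it could not be assigned.
Nr2f1 and Nr2f2 shared run: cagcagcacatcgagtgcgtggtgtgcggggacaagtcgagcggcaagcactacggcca
Of the 50-base windows of Nr2f1, 0.206% also occur in Nr2f2, and of its 4865 windows of 75 bases 0 do, against reads of 150 bases. Each gene also overlaps a gene on the other strand, and the library kit does not mark strand. B130024G19Rik overlaps 643 of the 8625 exonic bases of Nr2f2, and A830082K12Rik overlaps 123 of the 4752 exonic bases of Nr2f1. A830082K12Rik itself, in CPM (counts scaled to 1000000 per library), stood at 0.302, 0.619 and 0.201 (NP+) against 2.38, 1.95 and 3.83 (NP-), the same order of groups as Nr2f1 (edgeR's quasi-likelihood adjusted p = 0.127). No other gene overlaps exons of the remaining 5.

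Libraries held 20856410 to 58089600 gene counts. Values below are TMM-scaled CPM, in the order of tumour number, and means carry the SD over 3 libraries (n = 3). In the main test, edgeR's quasi-likelihood test on 23989 genes, 3 genes were higher and 4 lower in NP+ at an adjusted p under 0.05, which is 0.0292% of genes (0.0125% higher and 0.0167% lower), and 0 of the 7 genes were among them; with upper-quartile scaling the split was 3 and 18. The 12 pan-endothelial markers summed to 12708 to 14988 CPM in NP+ and 8244 to 11573 CPM in NP-, and none was at 0 in any library. The NP+ libraries correlated at 0.985 to 0.990 with each other across genes, and at 0.964 to 0.967 with the NP- library of MET-106, 0.919 to 0.929 with that of MET-107 and 0.905 to 0.912 with that of MET-108. The NP- library of MET-106 holds the most RNA of other cell types: 10 fibroblast markers sum to 4164 CPM there against 75.6 to 177 CPM in the other NP- libraries and 23.9 to 71.7 CPM in NP+. Its 8 epithelial markers, which mark carcinoma cells too, sum to 599.9 CPM against 16.5 to 34.9 and 8.29 to 14.0 CPM, and its mitochondrial share of counts is 3.90% against 1.01% to 1.498% in the other 5. The NP- library of MET-107 holds the most lymphatic RNA, with 1761 CPM over 7 markers against 255 and 733 CPM in the other NP- libraries and 399 to 457 CPM in NP+. In such bulk samples fewer cells of a type and less RNA per cell cannot be told apart.

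Nr2f2 (ENSMUSG00000030551, GRCm38 chromosome 7 from 70351944 to 70366735, minus strand) held 1152, 1906 and 1506 counts in NP+ and 1809, 1447 and 1011 in NP-. That is 31.6, 34.7 and 37.8 CPM in NP+ against 37.8, 60.2 and 34.0 CPM in NP-. The groups overlapped, and the NP- library of MET-107, the one with the most lymphatic marker RNA, was the highest of the 6. The NP- library of MET-108 had 733 CPM of lymphatic markers and 34.0 CPM of Nr2f2. That of MET-106 had 255 CPM of the markers and 37.8 CPM of Nr2f2. The mean of Nr2f2 was 34.7 ± 3.08 CPM in NP+ against 43.99 ± 14.1 CPM in NP-, with a log2 fold change (NP+ over NP-) of -0.34 (SE 0.25, 95% interval -0.92 to 0.23, adjusted p = 0.417). As a fold, the interval of the fitted difference runs from 0.530 to 1.18. With upper-quartile scaling the log2 fold change was -0.58 (SE 0.25, unadjusted p = 0.0485, adjusted p = 0.215) and with total-count scaling -0.65 (SE 0.27, unadjusted p = 0.0405, adjusted p = 0.194), so that Nr2f2 was then the other of the 7 genes under an unadjusted p of 0.05. Without the NP- library of MET-107 the log2 fold change was -0.039. The part of lymphatic cells in this value was not tested.

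Nr2f1 (ENSMUSG00000069171, chromosome 13 from 78188973 to 78199757, minus strand) held 6, 31 and 1 counts in NP+ and 132, 40 and 58 in NP-. In CPM these are 0.165, 0.565 and 0.0251 in NP+ and 2.76, 1.66 and 1.95 in NP-. Every NP- library lay above every NP+ library, which made it the 1 gene of 7 with no overlap between groups, where 28.9% of all tested genes show none in either direction and 15.6% show none while lower in NP+. The NP- over NP+ ratio within a tumour was 16.7 (exact 95% counting interval 7.49 to 46.4) in MET-106, 2.95 (1.80 to 4.87) in MET-107 and 77.8 (13.4 to 3124) in MET-108, where the last rests on 1 count in NP+. Means were 0.251 ± 0.280 CPM in NP+ against 2.12 ± 0.567 CPM in NP-. The log2 fold change was -3.04 (SE 1.06, 95% interval -5.46 to -0.63), with an unadjusted p of 0.0193 and an adjusted p of 0.159 by edgeR, so the gene was not called. A log2 fold change of -3 or lower was fitted for 6.76% of genes. With TMM scaling it was the only one of the 7 with an unadjusted p under 0.05, a level that 23.4% of all tested genes reach. With the tumour as a block the log2 fold change was -3.67 and the edgeR adjusted p 0.143, in a test that calls 0.0625% of genes, 0.0542% as lower. DESeq2 did call it (adjusted p = 0.0247, and 0.00444 with the tumour as a block). So did the authors' deposited table (log2 fold change -3.01 when turned to NP+ over NP-, adjusted p = 0.0356). Of the genes given an adjusted p, these tests call 15.5%, 18% and 13.2% in either direction. They call 11%, 12.3% and 9.45% as lower in NP+.

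The level of Nr2f1 has to be read against reads that fall on silent genes. Olfactory receptor genes were taken as a measure of these, with 1106 genes. Whether endothelium uses some of them was not tested. Their counts were pooled and divided by their pooled length, which gives a mean level per kilobase. Scaled to the length of Nr2f1, this mean is 0.153, 0.464 and 0.269 CPM in the NP+ libraries and 0.403, 2.00 and 1.58 CPM in the NP- libraries. Nr2f1 was 1.08, 1.22 and 0.0933 times this level in NP+ and 6.85, 0.831 and 1.23 times in NP-. So in 5 of 6 libraries it was 0.0933 to 1.23 times the olfactory level, and the exception was the NP- library of MET-106, the one rich in fibroblast markers. In that library 0.814% of single olfactory receptor genes were as high per kilobase as Nr2f1, against 43.6% and 27.2% in the other NP- libraries. The median olfactory gene stood at 0.00769, 0.0678 and 0.0327 CPM per kilobase in NP+ and 0.0625, 0.261 and 0.0856 in NP-, below the mean in every library. Nr2f1 stood at 0.0347, 0.119 and 0.00528 CPM per kilobase in NP+ and 0.580, 0.350 and 0.411 in NP-. It was thus above the olfactory median in all but the NP+ library of MET-108. The olfactory level itself was higher in NP- than in NP+ in each tumour. Whether Nr2f1 differs beyond this level was not tested, nor was the part of fibroblasts in it. Nr2f2, in contrast, was 41.2 to 114 times the olfactory level for its length in NP+ and 11.8 to 51.7 times in NP-.

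**Figure D1:**
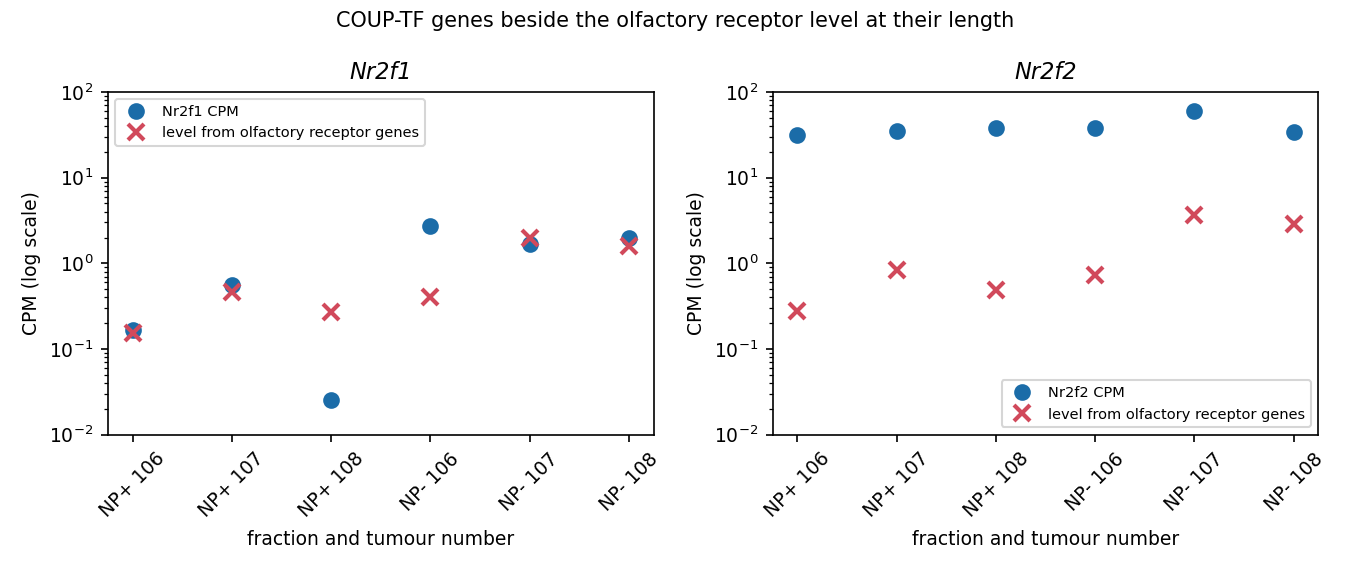
Nr2f1 (left) and Nr2f2 (right) in each of the 6 libraries as CPM on a log axis (blue points). Red crosses show the mean level that pooled olfactory receptor counts give for a gene of the same length. The median olfactory gene is lower than this mean in every library. Nr2f2 lies at least 11.8 times above the crosses in every library, whereas Nr2f1 is clearly above them only in the NP- library of MET-106 (6.85 times).

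Per kilobase of exon, which allows genes to be compared, Nr2f1 made up 0.936%, 2.87% and 0.120% of the COUP-TF pair (Nr2f1 plus Nr2f2) in NP+ and 11.7%, 4.78% and 9.43% in NP-. Of this pair, Nr2f2 was thus the larger part in every library. The third family member, Nr2f6, had 6.20, 10.2 and 8.33 CPM in NP+ against 4.34, 0.125 and 0.740 CPM in NP- (log2 fold change 2.22, adjusted p = 0.214). Its NP- libraries of MET-107 and MET-108 were the low ones. Of 7 tested COUP-TF relatives and cofactors, 1 was higher and 1 lower at an unadjusted p under 0.05, a level that 8.01% and 15.4% of all genes reach. None passed over all genes in the main edgeR test. DESeq2 called 1 in each direction, where it calls 966 higher and 2365 lower of 21548 genes. The higher was Smarca4, which encodes the chromatin remodeller BRG1, at 232 ± 26.7 CPM in NP+ against 141 ± 11.1 CPM in NP- (adjusted p = 0.114). The lower was Bcl11a, a transcriptional repressor gene, at 0.921 ± 0.456 against 6.94 ± 4.63 CPM (adjusted p = 0.117).

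Of the secreted products, Lrg1 (ENSMUSG00000037095, chromosome 17 from 56119680 to 56121946, minus strand) was among the most abundant transcripts. Its level was 1752, 1129 and 1848 CPM in NP+ against 1705, 1429 and 1160 CPM in NP-. The groups overlapped, and NP+ was higher in 2 of 3 tumours. The mean was 1577 ± 390 CPM in NP+ against 1431 ± 272 CPM in NP- (log2 fold change 0.14, SE 0.24, 95% interval -0.41 to 0.69, adjusted p = 0.732). With upper-quartile and total-count scaling the log2 fold change was -0.10 and -0.17, so its sign depends on the scaling. Its level per kilobase lay between the 99.88 and 99.92 percentiles of tested genes over the 6 libraries. Neutrophils also make Lrg1. After the CD45 depletion, 10 neutrophil markers summed to 5.74 to 8.30 CPM in NP+ and 10.9 to 173 CPM in NP-, and their part in the Lrg1 level was not tested.

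Bgn (ENSMUSG00000031375, chromosome X from 73483602 to 73495933, plus strand) was the most uneven gene among the 6 well expressed ones. It stood at 90.4, 55.9 and 109 CPM in NP+, and in NP- at 285, 43.3 and 52.7 CPM. The NP- library of MET-106 was 2.61 times the next highest library, while the other NP- libraries were below all 3 NP+ libraries. The mean was 85.2 ± 27.1 CPM in NP+ against 127 ± 137 CPM in NP- (log2 fold change -0.58, SE 0.65, 95% interval -2.06 to 0.91, adjusted p = 0.591). The sign turned without the NP- library of MET-106, with a log2 fold change of 0.88 (unadjusted p = 0.0193, adjusted p = 0.0893), and without both libraries of that tumour it was 0.98 (adjusted p = 0.161). With the tumour as a block it was -0.050. In that NP- library of MET-106, 10 mural markers summed to 892 CPM against 98.6 to 284 CPM in the other 5, beside the fibroblast sum of 4164 CPM. Among those 5, Bgn was lowest in the NP- library of MET-107, which had the most fibroblast (177 CPM) and mural (284 CPM) marker RNA. Bgn was the highest of those 5 in the NP+ library of MET-108, which had the least (23.9 and 98.6 CPM). The part of fibroblasts, mural cells and carcinoma cells in the Bgn level was not tested.

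**Figure D2:**
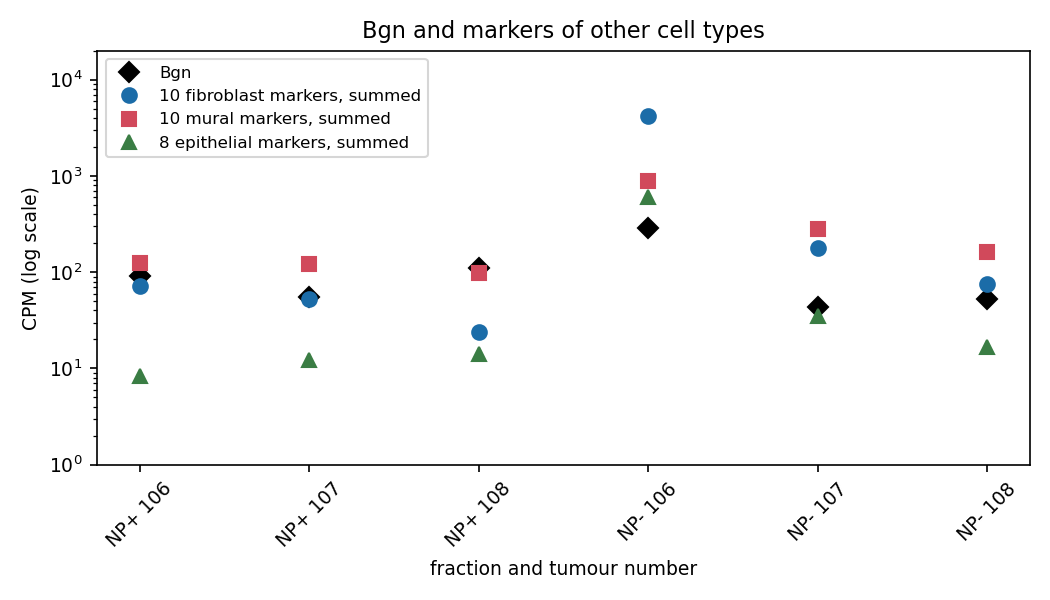
Bgn (black diamonds) and the summed CPM of 10 fibroblast, 10 mural and 8 epithelial markers in each library, on a log axis. All 4 series peak in the NP- library of MET-106, at 285 CPM for Bgn and 4164 CPM for the fibroblast markers. The NP- library of MET-107, the next highest in fibroblast and mural markers, has the lowest Bgn (43.3 CPM).

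Other genes of small leucine-rich proteoglycans, the family of biglycan, were also counted. Of 11 listed, 10 were tested, and 7 were lower in NP+ at an unadjusted p under 0.05 (15.4% of all genes). None passed over all genes in the main edgeR test, and DESeq2 called 2 lower, where it calls 11% of the genes given an adjusted p lower. The median log2 fold change of the tested proteoglycan genes was -2.95, where that of all genes was -0.29. Dcn, the decorin gene, had 4.53, 6.63 and 3.14 CPM in NP+ against 245, 7.44 and 10.6 CPM in NP-. Lum, the lumican gene, had 0.0546 to 0.220 CPM in NP+ against 105, 0.249 and 0.336 CPM in NP-. Both are fibroblast genes and also stand in the fibroblast list. Without the NP- library of MET-106, 1 of the tested proteoglycan genes was higher and 1 lower at an unadjusted p under 0.05, and the median was -1.15, with -0.58 for all genes.

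Of the receptors and membrane proteins, Il1r1 (ENSMUSG00000026072, chromosome 1 from 40225080 to 40317257, plus strand) was the only one of the 7 that was higher in NP+ in all 3 tumours. It stood at 158, 92.15 and 119 CPM in NP+, and in NP- at 119, 83.3 and 70.5 CPM, so each pair was ordered but the groups overlapped. The NP+ over NP- ratios were 1.33, 1.11 and 1.68. Together with Nr2f1 this makes 2 of 7 genes with 1 direction in 3 of 3 tumours, where 50.4% of all tested genes have that in either direction, 20% as higher and 30.4% as lower in NP+. The mean was 123 ± 33.4 CPM against 91.1 ± 25.3 CPM (log2 fold change 0.43, SE 0.26, 95% interval -0.17 to 1.04, adjusted p = 0.330, and 0.270 with the tumour as a block). It was 0.73 without the NP- library of MET-106 (adjusted p = 0.0919), and with total-count scaling 0.13.

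Around Il1r1, 1 of 18 tested pathway genes was higher and 4 lower at an unadjusted p under 0.05, against 8.01% and 15.4% of all genes. None passed over all genes in the main edgeR test. DESeq2 called 1 higher and 4 lower, where it calls 966 higher and 2365 lower of 21548 genes. The higher one was Traf6, a ubiquitin ligase gene downstream of the receptor, at 74.2 ± 12.8 CPM in NP+ against 28.4 ± 8.61 CPM in NP- (adjusted p = 0.0928). The lower ones were the ligand genes Il1a and Il1b, the antagonist gene Il1rn and the related receptor gene Il1rl1. Il1b, which had the smallest p of these, stood at 0.680 ± 0.447 against 6.07 ± 3.42 CPM (adjusted p = 0.114). Macrophages make several of these, and 8 macrophage markers summed to 16.9 to 27.7 CPM in NP+ and 39.8 to 119 CPM in NP-; their part in these values was not tested. The co-receptor gene Il1rap stood at 24.4 ± 1.28 against 27.0 ± 3.57 CPM (adjusted p = 0.681) and the adaptor gene Myd88 at 134 ± 13.4 against 108.1 ± 14.1 CPM (adjusted p = 0.300).

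Flrt2 (ENSMUSG00000047414, chromosome 12 from 95692226 to 95785215, plus strand) stood at 42.6, 32.5 and 30.3 CPM in NP+, and in NP- at 29.7, 35.4 and 18.2 CPM. The groups overlapped, and MET-107 ran against the other tumours. The mean was 35.2 ± 6.55 CPM against 27.7 ± 8.77 CPM (log2 fold change 0.34, SE 0.29, 95% interval -0.31 to 0.99, adjusted p = 0.467). With total-count scaling the log2 fold change was 0.032. Of the 7 tested relatives and partners, 5 were lower and 1 higher in NP+ at an unadjusted p under 0.05 (15.4% and 8.01% of all genes). None passed over all genes in the main edgeR test. DESeq2 called 3 lower and 1 higher, where it calls 2365 lower and 966 higher of 21548 genes. Flrt3, its paralog, stood at 2.45 ± 0.335 CPM in NP+ against 12.4 ± 6.77 CPM in NP- (adjusted p = 0.102). Among the latrophilin genes, Adgrl2 stood at 183 ± 25.1 against 107.5 ± 11.3 CPM (adjusted p = 0.113) and Adgrl3 at 1.43 ± 0.557 against 13.8 ± 8.78 CPM (adjusted p = 0.0875).

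Tmem252 (ENSMUSG00000048572, chromosome 19 from 24674008 to 24679661, plus strand) was the second most abundant of the 7 and the most even. It stood at 400.0, 373 and 427 CPM in NP+, and in NP- at 294, 283 and 446 CPM. The NP- library of MET-108 was the highest of all 6, and the other NP- libraries were the lowest. The mean was 400.1 ± 26.9 CPM against 341 ± 91.0 CPM (log2 fold change 0.23, SE 0.21, 95% interval -0.25 to 0.71, adjusted p = 0.507). The highest library was 1.58 times the lowest. Without the NP- library of MET-108 the log2 fold change was 0.49 (unadjusted p = 0.0174, adjusted p = 0.146), and with total-count scaling it was -0.066. All 7 genes are annotated as protein-coding.

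**Figure D3:**
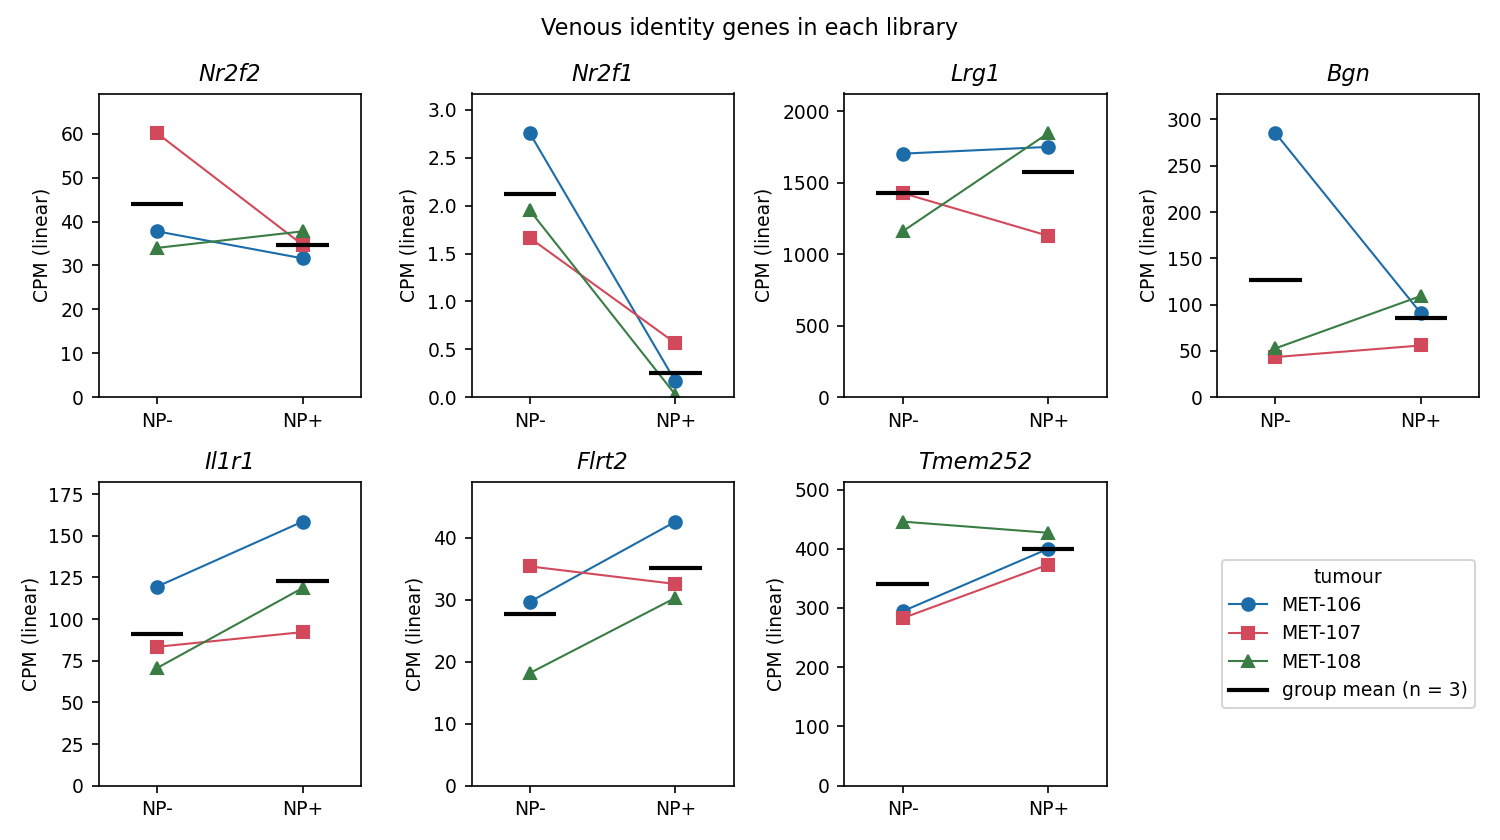
CPM of each of the 7 genes in the NP- and NP+ library of each tumour (points joined within a tumour, linear axes from 0, black bars for the mean of 3 libraries). The tumours run in both directions for Lrg1, Bgn, Flrt2, Tmem252 and Nr2f2, Il1r1 climbs in all 3 tumours (ratios 1.33, 1.11 and 1.68), and Nr2f1 drops in all 3.

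Per kilobase of exon the order of the genes in NP+ was Lrg1 (1167 ± 289 CPM per kilobase), Tmem252 (162.5 ± 10.9), Il1r1 (19.3 ± 5.25), Bgn (14.0 ± 4.45), Flrt2 (4.55 ± 0.849), Nr2f2 (4.02 ± 0.357) and Nr2f1 (0.0529 ± 0.0589). Neighbours Il1r1 and Bgn, and Flrt2 and Nr2f2, had overlapping ranges over libraries. In NP- the order was Lrg1 (1059 ± 201), Tmem252 (138.5 ± 37.0), Bgn (20.8 ± 22.5), Il1r1 (14.3 ± 3.98), Nr2f2 (5.10 ± 1.64), Flrt2 (3.59 ± 1.14) and Nr2f1 (0.447 ± 0.119), and the neighbours Bgn and Il1r1, and Nr2f2 and Flrt2, again had overlapping ranges. The other neighbours in each order did not overlap over libraries.

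Across the 7 genes the fitted log2 fold changes were above 0 for 4 and below 0 for 3, with a median of 0.14, against a median of -0.29 over all tested genes. Total-count scaling moved the median of the 7 to -0.17 and that of all genes to -0.59, and upper-quartile scaling moved them to -0.10 and -0.53. Both also turned the sign of Lrg1 and Tmem252, whereas Il1r1 and Flrt2 were above 0 and Nr2f2, Nr2f1 and Bgn below 0 under all 4 scalings run.

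**Figure D4:**
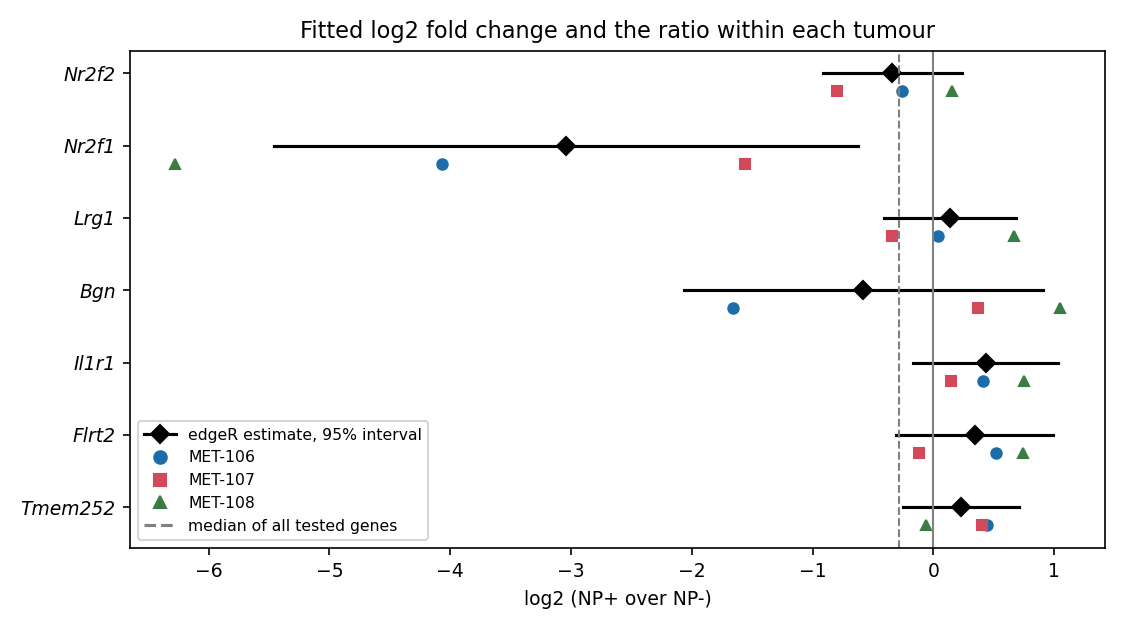
Fitted log2 fold change (NP+ over NP-, black diamonds with 95% intervals from edgeR) and the ratio within each tumour (coloured symbols) for the 7 genes, with the median of all tested genes as a dashed line at -0.29. Of the 7 intervals, 6 include 0, and the exception is Nr2f1 (-5.46 to -0.63), whose adjusted p was 0.159.

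Other venous genes were counted beside the 7. Of 15 further genes used as marks of venous or postcapillary endothelium, 8 were higher and 1 lower at an unadjusted p under 0.05 (8.01% and 15.4% of all genes), none passed over all genes in the main edgeR test, and their median log2 fold change was 0.68. Of the 12 pan-endothelial markers, 5 were higher and 0 lower at that p, with a median of 0.42, and Emcn is in both lists. With total-count scaling 5 of the 15 venous genes were higher and 2 lower and the median was 0.37. The pan-endothelial markers then had 0 higher, 0 lower and a median of 0.12. Without the NP- library of MET-106, edgeR called 6 of the 15 higher and 1 lower at an adjusted p under 0.05, beside 968 and 1352 of 27794 genes. DESeq2 on all libraries gave the same counts for the 15, beside 966 higher and 2365 lower of 21548 genes. With no low-count filter edgeR called 5 higher and 1 lower, beside 525 and 686 of 44259 genes. With a filter of 5 CPM in 3 libraries edgeR called 0 higher and 1 lower, beside 18 and 87 of 10671 genes. Ephb4, an ephrin receptor gene, had the smallest p of the list, at 179 ± 19.5 CPM against 74.9 ± 5.87 CPM (adjusted p = 0.0600). Selp, the P-selectin gene, had 1635 ± 663 against 429.6 ± 189 CPM (adjusted p = 0.0992, and 0.0319 with the tumour as a block). Several of these 15 are also leukocyte adhesion or fenestral genes (Selp, Sele, Vcam1 and Plvap). The list was made with earlier results on some of its genes in view, and its difference from the 7 genes or from the pan-endothelial markers was not tested.

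**Figure D5:**
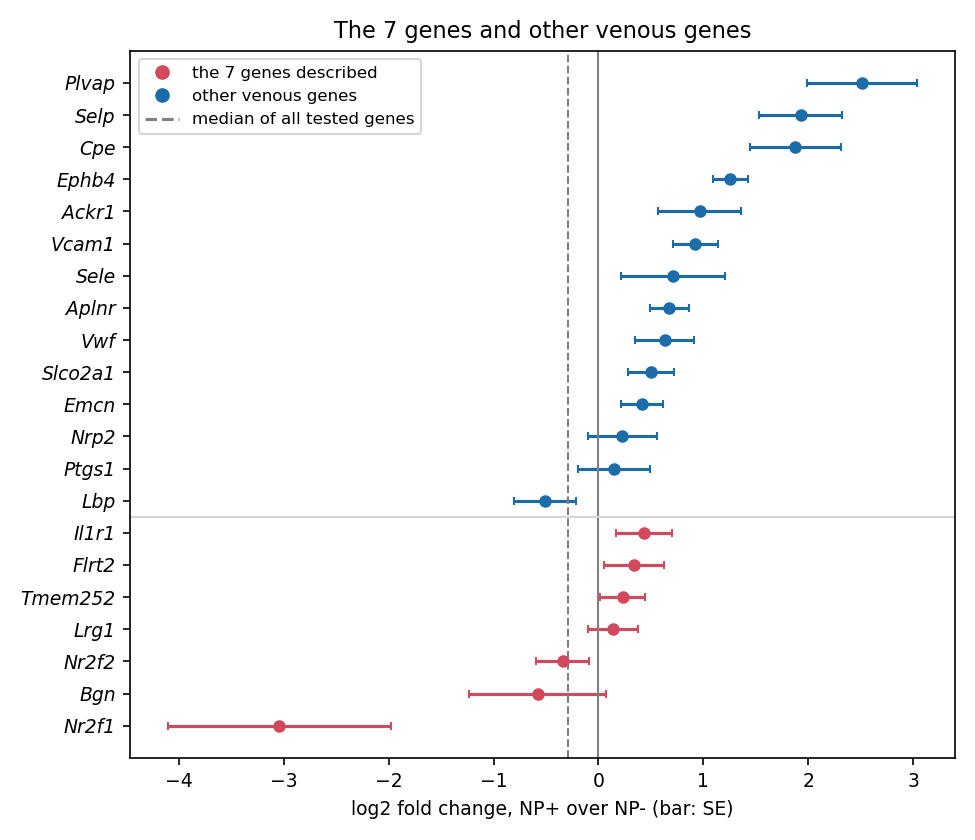
Log2 fold change (NP+ over NP-, bars are the SE) of the 7 genes (red) and of other venous genes (blue, all but 1 of the 15), with the median of all tested genes dashed. The medians are 0.14 for the 7 and 0.68 for the 15, and none of the 22 genes passed over all genes in the main edgeR test.

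The programmes that COUP-TFII is known to act on were counted too. Of 19 arterial and Notch genes, 2 were higher and 3 lower in NP+ at an unadjusted p under 0.05 (8.01% and 15.4% of all genes). Their median log2 fold change was -0.033, which turned to 0.29 with the tumour as a block. None passed over all genes in the main edgeR test. DESeq2 called 2 higher and 3 lower, where it calls 966 higher and 2365 lower of 21548 genes. Sox17, an arterial transcription factor gene, had 66.1 ± 13.0 against 26.5 ± 7.31 CPM (adjusted p = 0.0955), and the connexin gene Gja4 at 109 ± 14.5 against 232 ± 54.0 CPM (adjusted p = 0.0941). Of 8 lymphatic genes, 0 were higher and 4 lower at that p (15.4% of all genes are lower), with a median of -1.69. All but Nrp2 are the same lymphatic markers that were summed for each library, so the 2 results are not separate. Nrp2 is also among the other venous genes. None of the 8 passed over all genes in the main edgeR test. DESeq2 called 4 of them lower, where it calls 11% of the genes given an adjusted p lower. Prox1, the lymphatic transcription factor gene, had 13.9, 16.8 and 12.5 CPM (NP+) against 16.0, 73.7 and 34.3 CPM (NP-) (adjusted p = 0.145). Without the NP- library of MET-107, 0 of the 8 reached an unadjusted p under 0.05 and the median was -0.53. Of 15 genes that act with Lrg1 or induce it, 2 were higher and 1 lower at an unadjusted p under 0.05 (8.01% and 15.4% of all genes). None passed over all genes in the main edgeR test, and DESeq2 called 2 higher, where it calls 966 of 21548 genes higher. With total-count scaling the counts were 0 higher and 3 lower. In the main test the higher ones were Eng and Smad1. Eng, the endoglin gene, is also a pan-endothelial marker and had 1558 ± 140 against 945.5 ± 168 CPM (adjusted p = 0.126). Smad1 had 388 ± 18.8 against 229 ± 94.1 CPM (adjusted p = 0.163). The lower one was Id2, an inhibitor of basic helix-loop-helix factors, with 30.7 ± 1.43 against 48.8 ± 15.5 CPM (adjusted p = 0.182).

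Patterns across the 6 libraries were compared by Pearson's r with those of 10824 genes (10825 for Nr2f1) that had a mean of at least 5 CPM, as a description of 6 points that share the library depths and the 2 fractions. The pattern of Nr2f2 was closest to that of Zfp934 (r = 0.997), Ube2v2 (0.996) and Mctp2 (0.984), and that of Nr2f1 to Ncam1 (0.996), Trerf1 (0.992) and Eml5 (0.991). Lrg1 was closest to the AP-1 gene Junb (0.979), and then to Ndufaf7 (0.974) and Cdkn2aip (0.967). Bgn was closest to Vsig2 (0.987), Hmga1 (0.984) and Dse (0.984), and Il1r1 to Elf1 (0.994), Nsun5 (0.993) and Aaas (0.993). Flrt2 was closest to Med18 (0.997), Cyp4v3 (0.987) and Zcchc4 (0.986), and Tmem252 to Togaram1 (0.997), Ncstn (0.996) and Fam210b (0.995). With only 6 points such values were common: 35 genes reached r above 0.9 with Lrg1 and 451 with Tmem252. None of the 7 was among the closest 3 of another. Among the 7, Lrg1 and Il1r1 had the highest mutual value (0.81) and Nr2f2 and Tmem252 the lowest (-0.71).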

How the data were processed

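RNA was sequenced from 3 NP+ and 3 NP- libraries, 1 of each per tumour, made with SMART-Seq v4, per the labels' protocols. The deposited files hold a whole-number count per gene. The build was GRCm38 (mm10), and the tools named in the submitters' processing notes are STAR 2.5.2b, Trimmomatic 0.036, Subread 1.5.2 (featureCounts) and DESeq2; no setting for strand or multi-mapped reads is named there. Gene coordinates and exonic lengths are those of the deposited count files. The authors' deposited table gives a normalized signal per library, log2 fold changes of NP- over NP+, p-values and adjusted p-values. Its 156426 signal values gave whole reads within 0.01, 100% of them equal to the counts, so the count tests here also serve for those reads.

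Counts were tested with edgeR 4.0.16 (quasi-likelihood, TMM, filterByExpr with a minimum count of 10, Benjamini-Hochberg over 23989 genes, threshold 0.05), in R 4.3.3 with limma 3.58.1 and DESeq2 1.42.0. The edgeR code was also run on counts simulated as independent libraries, with no tumour pairing and no library of mixed cell types. That run checks the code and does not show how the test performs on these libraries. The SE is the log2 fold change divided by the square root of F, and intervals use its t distribution. Correlations used log2(CPM + 0.5). The labels tie each NP+ library to an NP- library of the same tumour. Their deviations from the group means correlated at 0.27, 0.21 and 0.04, and the tumour block is an alternative. P-values of the main fit measure the spread between the 3 libraries of each fraction, with information shared over genes and no tumour term. With the block they measure the spread of the differences within the 3 tumours. Counting intervals treat each read as independent and leave out the spread between tumours. Reads carry no molecular identifiers, so copies of the same molecule are counted apart and these intervals may be too narrow.

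The 7 genes, the lists and the tests were chosen with earlier results of these data known. The text names the 7 genes, the 3 genes most like each and up to 3 genes per list by smallest p. Ligands, other members of these lists and neighbours named beyond that were chosen after their values were seen. Of the listed genes, 1 was not analysed here. The values of 1 other venous gene are not reported here; the counts of its list include it. Alternatives were 3 other scalings, 2 other filters, DESeq2, limma-voom, the block, an adjusted p under 0.1 and each library or tumour left out. DESeq2 with the block was added after seeing the data.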

Additional observations from a re-analysis of the deposited data

How the results depend on the processing

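In 19 alternatives (18 for Nr2f1, which did not pass the filter of 5 CPM in 3 libraries), no edgeR or limma-voom setting called any of the 7 genes. DESeq2 called 1 lower, Nr2f1 (log2 fold change -3.02), and so did DESeq2 with the tumour as a block (-3.70). The signs of Nr2f2, Nr2f1, Il1r1 and Flrt2 held in every alternative run. Lrg1 turned to -0.10 with upper-quartile scaling, -0.17 with total counts and -0.14 with the 5 CPM filter, and Tmem252 to -0.030, -0.066 and -0.039. Bgn turned to 0.015 by DESeq2 with the block, to 0.88 without the NP- library of MET-106 and to 0.98 without that tumour, and Lrg1 to -0.041 without the tumour MET-108. The cause was not tested. Without 1 library or tumour, log2 fold changes ranged from -1.16 to 0.98 for Bgn (-0.98 to 0.88 over single libraries), -4.61 to -2.39 for Nr2f1, -0.47 to -0.039 for Nr2f2, -0.041 to 0.40 for Lrg1, 0.30 to 0.73 for Il1r1, 0.14 to 0.60 for Flrt2 and 0.12 to 0.50 for Tmem252.

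At an unadjusted p under 0.05, 2 of the 7 were lower with upper-quartile or total-count scaling and 0 with the 5 CPM filter. Leaving out 1 library or tumour gave 0 to 2 higher and 0 to 1 lower. The 2 higher were Bgn and Il1r1, without the NP- library of MET-106 or that tumour, and Nr2f1 no longer reached it without the NP- library of MET-106, the NP+ library of MET-106 or of MET-108, or the tumour MET-106 or MET-108.

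Over all genes, calls were 3 higher and 4 lower. They were 18 lower with upper-quartile scaling, 9 lower with total counts, 525 higher and 686 lower with no filter, 18 and 87 with the 5 CPM filter, 13 lower with the tumour block, 966 and 2365 by DESeq2, 1256 and 2719 by DESeq2 with the block, 12 higher by limma-voom, and 121 and 124 at an adjusted p under 0.1. Leaving out 1 library or tumour gave 0 to 968 higher and 0 to 1352 lower. The block changed no edgeR call among the 7. Nr2f1 held 1 to 132 counts a library, and depth sets the width of the counting intervals of its ratios within a tumour.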
